A study of Mus musculus with 15 samples.

Results

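Neurofilaments are the intermediate filaments of axons. In central neurons they are copolymers of the light, medium and heavy neurofilament subunits, encoded by Nefl, Nefm and Nefh, with alpha-internexin, encoded by Ina. The light subunit forms the core of the polymer, while the long tails of the medium and heavy subunits project from it and are phosphorylated at repeated lysine-serine-proline motifs. Neurofilament content is a determinant of axon calibre, and the heavy subunit is abundant in large projection neurons and in parvalbumin interneurons of the cortex. These 4 genes were taken by name from the count files of all 15 libraries, out of 55341 genes in the PTU_TH and PTU files and 48321 in the Mut and Ctrl files. Of the 4, 3 had counts (Nefh, Nefm and Ina), and Nefl was listed at 0 in every library.

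Each library held nuclear RNA of parvalbumin neurons, a class of fast-spiking inhibitory interneuron, whose fluorescent nuclei were sorted from the cortex of 1 adult mouse. All groups carried a Cre transgene under parvalbumin control (PvCre) and the Cre-dependent reporter ROSA-tomato-lox, so every mouse used here, controls included, had both alleles. PTU_TH mice (n = 4, Thra+/+) were fed propylthiouracil (PTU), a blocker of thyroid hormone synthesis, for 2 weeks and were injected intraperitoneally with thyroid hormone 24 h before dissection. PTU mice (n = 3, Thra+/+) had the same diet without the injection. Mut mice (n = 4, ThraAMI/+) carried a floxed allele through which the sorted cells express TRalpha1L400R, a dominant negative form of thyroid hormone receptor alpha, and had no PTU. Ctrl mice (n = 4, Thra+/+) were their untreated littermates. Expression of the mutant receptor was limited to Cre-expressing cells, and exact ages were not given in the sources used here.

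Libraries held 12957838 to 19141683 counts in PTU_TH and PTU and 22333742 to 32571175 in Mut and Ctrl. Hr, a hormone-induced corepressor gene, read 42.9 to 50.2 CPM (counts scaled to library size with TMM factors) in PTU_TH against 2.68 to 5.87 in PTU, and 0.485 to 3.92 in Mut against 12.8 to 16.4 in Ctrl. Thra itself read 28.4 to 39.4 CPM in Mut and 49.7 to 64.2 CPM in Ctrl, counts that do not separate the mutant from the normal allele. Gad1, the GABA-synthesising enzyme, was at 1028 to 1753 CPM over all libraries and Slc17a7, the glutamate transporter of excitatory neurons, at 17.2 to 52.6 CPM. Libraries differed in the share of counts in genes longer than 100 kb, which was 24.9% to 40.7% in PTU_TH and PTU and 27.4% to 39.7% in Mut and Ctrl.

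The coding sequences set the members apart, and the stretches below show the repeat that distinguishes the heavy subunit. In GENCODE M21 (GRCm38), the coding sequence of the first-listed Nefh transcript (chromosome 11, minus strand) has 1090 codons and holds 51 runs of a lysine, a serine and a proline codon. That of Nefm (chromosome 14, minus strand) has 848 codons and 4 such runs, while those of Nefl (543 codons) and Ina (501 codons) have 0. The window of 30 codons with the most runs, read 5′ to 3′ from the transcript with the lysine-serine-proline codons in capitals, spans codons 519 to 548 of Nefh and 478 to 507 of Nefm.
Nefh: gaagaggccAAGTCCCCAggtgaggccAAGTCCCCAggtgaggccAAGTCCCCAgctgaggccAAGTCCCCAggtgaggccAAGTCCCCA
Nefm: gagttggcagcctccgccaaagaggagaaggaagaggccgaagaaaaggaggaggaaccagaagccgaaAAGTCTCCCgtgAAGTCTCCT
The Nefh window holds 5 runs in a nearly regular repeat, whereas the Nefm window holds 2 runs.

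Nefl, the core subunit, could not be assessed. It lies on the plus strand of chromosome 14 (68083863 to 68089095), wholly inside the annotated span of Nefm on the minus strand (68082590 to 68124846). That span comes from the longer annotated transcript of Nefm, whose last exon covers 1108 of the 3380 exonic bases of Nefl, whereas the shorter Nefm transcript (68119283 to 68124846) does not reach it. Of protein-coding genes whose span lies wholly inside other genes while their exons are shared with none, 683 of 683 were at 0 in every PTU_TH and PTU library (Nefl, with shared exonic bases, is not among them). In Mut and Ctrl libraries 601 of 634 (94.8%) were at 0. Among genes that share no base of their span, 30.5% and 22.5% were at 0 in the same sets of files. The 0 of Nefl was therefore read as no measurement, and no upper limit was set on its level.

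**Figure D1:**
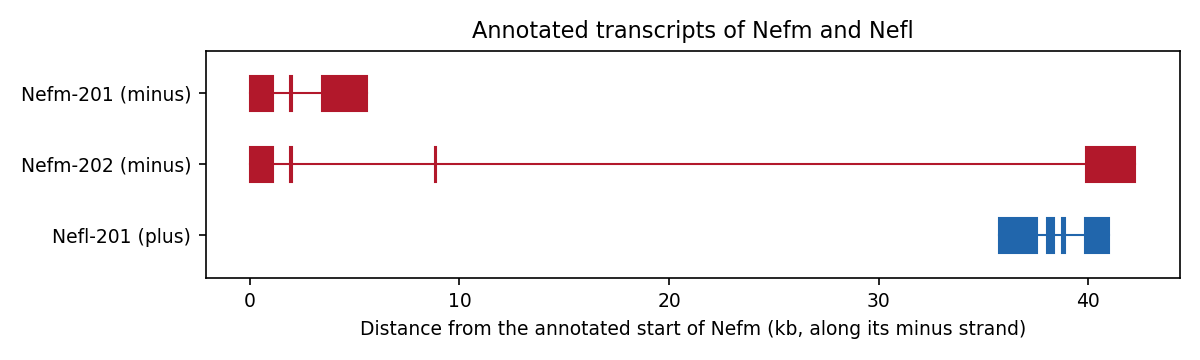
Annotated exons (boxes) and introns (lines) of both Nefm transcripts and of Nefl in GENCODE M21, with distance in kb from the annotated start of Nefm on the x axis. All of Nefl lies within the span of the longer Nefm transcript and beyond the end of the shorter one.

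The other members had positions largely of their own. Nefh (chromosome 11, 4938754 to 4948064, minus strand) shared no base with another gene. Ina (chromosome 19, 47014698 to 47025327, plus strand) shared 456 bases of its span with Nt5c2, and 85.9% of its exonic bases were its own. For Nefm 80.8% of the exonic bases were its own, the rest lying over Nefl, so that without a stated strand setting its counts are less certain than those of Nefh. The lowest count of these 3 genes in any library was 840 (Nefm in PTU_TH replicate 1) and the highest 5015 (Ina in Ctrl replicate 4), which puts counting error at 1.41% to 3.45%. That leaves out amplification, since the reads carry no molecular identifiers.

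By group mean, Ina and Nefh were the more abundant transcripts and Nefm the less abundant. Per kb of annotated exon, Ina averaged 64.7 ± 13.3 CPM in PTU_TH, 52.5 ± 14.1 in PTU, 49.4 ± 2.30 in Mut and 58.3 ± 5.68 in Ctrl (SD; n = 4, 3, 4 and 4). Nefh averaged 46.4 ± 14.3, 37.0 ± 9.16, 23.1 ± 3.06 and 41.8 ± 11.1 CPM per kb in the same order of groups. Nefm averaged 12.3 ± 2.46, 12.4 ± 2.11, 8.38 ± 1.48 and 11.2 ± 2.60 CPM per kb. Ina thus averaged highest and Nefm lowest in each group, with the ranges of Ina and Nefh apart only in Mut (46.4 to 51.7 against 20.9 to 27.6 CPM per kb). In Ctrl the lowest Ina value (49.9 CPM per kb, replicate 1) was just under the highest Nefh value, which came from another library. Compared within each library by exon length, Ina was above Nefh and Nefm below both in every library. The order of the members depended on the length used. Per kb of RefSeq gene span, a length chosen after seeing the data, Nefh averaged 17.9 ± 4.77, Ina 17.7 ± 1.73 and Nefm 11.8 ± 2.76 CPM per kb in Ctrl. In Mut the same length gave 15.05 for Ina, 9.93 for Nefh and 8.87 for Nefm. The Mut ranges of Nefh (8.98 to 11.9) and Nefm (7.28 to 10.7 CPM per kb) then overlapped. Whether reads were counted over exons or whole gene spans was not given, so neither length is established as the right one. The RefSeq span of Nefm is 5.46 kb and does not reach Nefl, whereas the GENCODE span that encloses Nefl is 42257 bases. Per kb of that longer span Nefm would be lower than given here, and this level was not computed. The place of Nefm by gene span, and its overlap with Nefh in Mut, thus hold for the RefSeq length only.

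The comparison of Mut with Ctrl asked how the dominant negative receptor alters these neurons. Nefh, the heavy subunit, read 86.1, 89.7, 83.6 and 110 CPM in Mut replicates 1 to 4, against 102, 187, 200 and 180 CPM in Ctrl replicates 1 to 4. All Mut libraries and Ctrl replicate 1 lay between 83.6 and 110 CPM, and the other 3 Ctrl libraries were well above them, so that the groups overlapped through 1 control. The log2 fold change of Nefh was −0.85 ± 0.19 (SE; 95% interval −1.27 to −0.43), a linear ratio of 0.554. It did not pass the threshold of an adjusted p under 0.05 (unadjusted p = 0.000872, adjusted p = 0.0992 by the quasi-likelihood F test of edgeR, Benjamini-Hochberg adjusted over all genes tested). By unadjusted p it ranked 149 of 16949 genes tested.

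Nefm, the medium subunit, read 39.8, 58.5, 43.2 and 52.3 CPM in Mut replicates 1 to 4, against 45.8, 63.9, 82.6 and 66.1 CPM in Ctrl replicates 1 to 4. Ctrl replicate 1 was again the lowest control and fell within the Mut range. Its log2 fold change was −0.41 ± 0.19 (95% interval −0.82 to −0.0089; edgeR adjusted p = 0.557), and −0.27 without Ctrl replicate 3. Ina, which copolymerises with the neurofilament triplet, read 150, 168, 159 and 164 CPM in Mut replicates 1 to 4, against 162, 195, 197 and 202.2 CPM in Ctrl replicates 1 to 4. Here too 3 controls lay above all Mut libraries and Ctrl replicate 1 among them. The log2 fold change of Ina was −0.24 ± 0.11 (edgeR adjusted p = 0.572).

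Thus 0 of the 3 measured members passed in Mut against Ctrl by edgeR, where 0.348% of all genes tested were called (0.124% higher and 0.224% lower). All 3 had a negative value and an unadjusted p under 0.05, a level that 8.74% of all genes reached. For 0 of the 3 were the group ranges apart, as they were for 6.12% of all genes. In bulk nuclei, less RNA per cell and fewer cells of a high-expressing type cannot be told apart. Over the 7 other settings the log2 fold change of Nefh stayed between −0.85 and −0.82, while its adjusted p ran from 0.00246 to 0.271, by DESeq2 at the low end and edgeR at the high end. The call also turned on Ctrl replicate 1. Without this library the log2 fold change was −1.03 (edgeR adjusted p = 0.0162). With every library kept, DESeq2 gave −0.85 (adjusted p = 0.00246) and a covariate for the share of long genes gave −0.82 (edgeR adjusted p = 0.0427). A covariate for Y-linked counts, present in 3 Mut libraries and 1 Ctrl library, gave −0.82 with an edgeR adjusted p of 0.271.

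**Figure D2:**
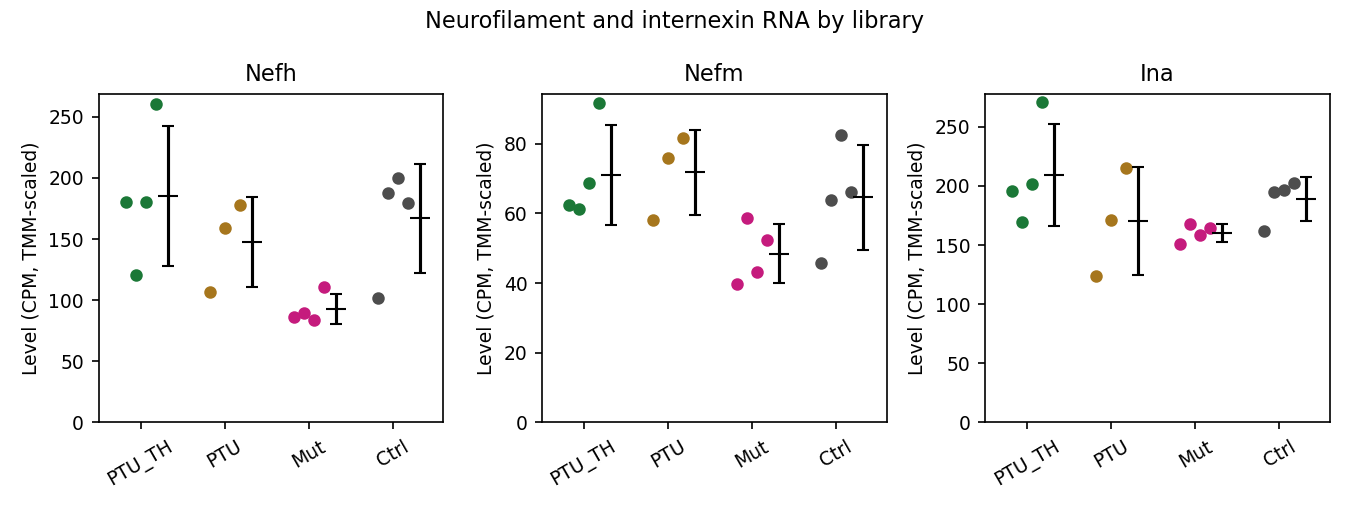
Levels of Nefh, Nefm and Ina in each library (points, CPM scaled by TMM) with the mean and SD beside each group. The 4 Mut libraries read 83.6 to 110 CPM for Nefh, and of the Ctrl libraries only replicate 1, at 102 CPM, lies in that range.

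The ratio of the heavy subunit to alpha-internexin within a library needs no scaling between libraries. Nefh had 0.572, 0.535, 0.527 and 0.673 counts per Ina count in Mut replicates 1 to 4, against 0.629, 0.962, 1.02 and 0.888 in Ctrl replicates 1 to 4. Mut libraries had the lower ratios, with an overlap between Mut replicate 4 and Ctrl replicate 1. The ratio averaged 0.871 ± 0.111 in PTU_TH and 0.872 ± 0.053 in PTU (SD). It averaged 0.577 ± 0.067 in Mut and 0.874 ± 0.171 in Ctrl. Nefh per Nefm averaged 2.58 ± 0.425 in PTU_TH and 2.04 ± 0.176 in PTU, and 1.94 ± 0.287 in Mut against 2.57 ± 0.315 in Ctrl. In reads per kb of exon summed over the 3 measured members, Nefh made up 28.5% ± 2.28 in Mut and 37.0% ± 4.42 in Ctrl, and 37.1% ± 3.24 in PTU_TH and 36.3% ± 1.17 in PTU. Nefm made up 10.3% ± 1.24 in Mut and 9.99% ± 0.972 in Ctrl, and 10.1% ± 0.926 in PTU_TH and 12.4% ± 1.06 in PTU. Ina per Nefm ran from 2.77 to 3.15 in PTU_TH and from 2.13 to 2.64 in PTU. It ran from 2.86 to 3.79 in Mut and from 2.38 to 3.53 in Ctrl. These ratios combine the members and were not tested.

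**Figure D3:**
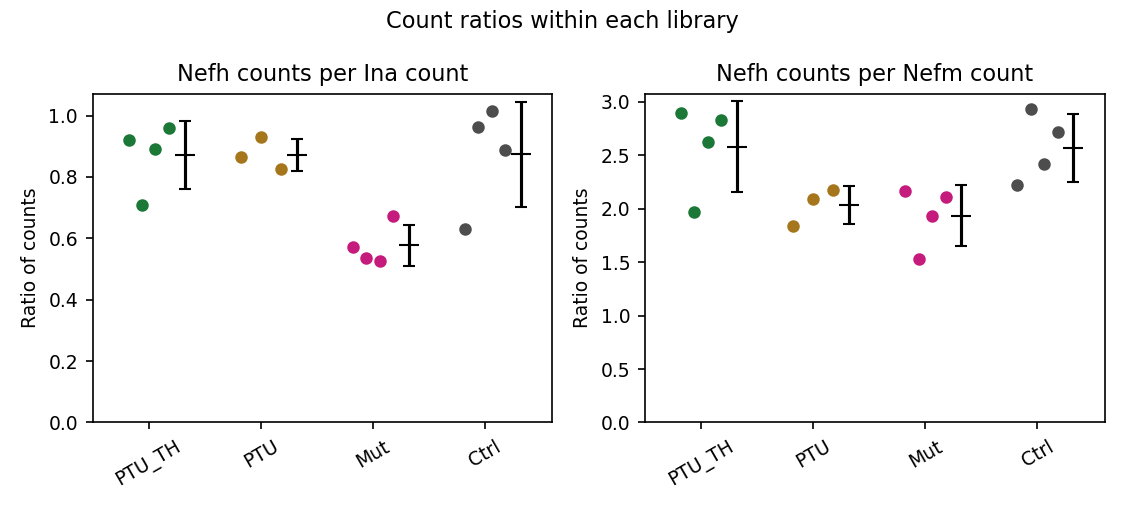
Nefh counts per Ina count and per Nefm count in each library (points), with mean and SD beside each group. The Nefh to Ina ratio is 0.527 to 0.673 in Mut, against 0.629 to 1.02 in Ctrl.

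PTU_TH was set against PTU to read the response of hormone-depleted mice 24 h after hormone was given. Nefh read 180, 120, 180 and 260 CPM in PTU_TH replicates 1 to 4, against 107, 159 and 178 CPM in PTU replicates 5 to 7. PTU_TH replicate 2 lay within the PTU range, and PTU_TH replicate 4 was the highest library of the series. The log2 fold change was 0.34 ± 0.25 (SE; 95% interval −0.23 to 0.91), with an edgeR adjusted p of 0.939. It was 0.14 without PTU_TH replicate 4 and 0.17 without PTU replicate 5.

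Ina read 196, 170, 201.97 and 271 CPM in PTU_TH replicates 1 to 4, against 124, 171 and 215 CPM in PTU replicates 5 to 7. The libraries fell in nearly the same order as for Nefh, and the groups overlapped. Its log2 fold change was 0.32 ± 0.21 (95% interval −0.15 to 0.78; edgeR adjusted p = 0.898). It was 0.17 without PTU_TH replicate 4, 0.15 without PTU replicate 5 and 0.52 without PTU replicate 7. Nefm read 62.3, 61.3, 68.7 and 91.8 CPM in PTU_TH replicates 1 to 4, against 58.1, 75.8 and 81.5 CPM in PTU replicates 5 to 7. Its values interleaved, and the log2 fold change was −0.0032 ± 0.17 (95% interval −0.38 to 0.37; edgeR adjusted p = 1.00).

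By edgeR 0 of the 3 members passed in PTU_TH against PTU, where 0.281% of all genes were called (0.255% higher and 0.0262% lower). For 0 of the 3 were the ranges apart, against 8.59% of all genes. With the share of counts in long genes as a covariate, the values for Nefh (0.41, edgeR adjusted p = 0.00806) and Ina (0.39, edgeR adjusted p = 0.0111) passed, while that for Nefm did not (0.045, edgeR adjusted p = 0.851). That fit called 1011 genes in all, against 43 without the covariate. With the Y-linked covariate, which divides the same 7 libraries in the same way as the clusters of that share, Nefh (0.43, edgeR adjusted p = 0.179) and Ina (0.40, edgeR adjusted p = 0.142) did not pass.

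In the PTU_TH and PTU libraries that share formed separate clusters, and the levels of many shorter genes varied with it. Over 8981 genes of up to 100 kb the median correlation of the level with the share was −0.50 across these 7 libraries (quartiles −0.82 and 0.25). It is given as a description, since it spans both clusters. The share and the levels also come from the same counts of each library, the levels being scaled to library size with TMM factors. How far this by itself makes them vary together was not tested. Nefm read 68.7 to 91.8 CPM in the 4 libraries with a share of 24.9% to 28.4%, and 58.1 to 62.3 CPM in the 3 libraries with 34.1% to 40.7%. Nefh read 159 to 260 CPM in the low-share libraries and 107 to 180 CPM in the high-share libraries. Ina read 171 to 271 CPM in the low-share and 124 to 196 CPM in the high-share libraries. The ranges of Nefh and of Ina thus overlapped between the clusters, and those of Nefm did not. The 4 low-share libraries were also those with Y-linked counts, and with 4 and 3 libraries the clusters were too small for a correlation within them.

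Over the 8 Mut and Ctrl libraries, log2 levels also had negative correlations with the share. These correlations span both genotypes, and the permutations did not keep the genotypes apart. Their r and p therefore mix genotype with share. Pearson's r was −0.36 for Nefh (exact permutation p = 0.378), −0.60 for Nefm (exact permutation p = 0.116) and −0.54 for Ina (exact permutation p = 0.171). Spearman's rho was −0.43, −0.69 and −0.71 in the same order (exact permutation p = 0.299, 0.0694 and 0.0576). Adjusted over these 3 relations, the Pearson p were 0.378, 0.257 and 0.257 and the Spearman p 0.299, 0.104 and 0.104, by the exact permutation test. Without the 2 libraries farthest from the median share, Mut replicate 2 and Ctrl replicate 1, r was −0.83, −0.71 and −0.87. In the libraries left the share was 29.5% to 33.0% in Ctrl and 34.6% to 36.7% in Mut. Share and genotype cannot be told apart in these values. The median r over 9050 genes of up to 100 kb was −0.22 across all 8 Mut and Ctrl libraries (quartiles −0.55 and 0.22). Mut replicate 2 had the lowest share of its set (27.4%) and 89.7 CPM of Nefh, whereas Ctrl replicate 1 had the highest (39.7%) and 102 CPM. The part of the long-gene share in the differences between groups was not tested beyond the covariate fits.

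**Figure D4:**
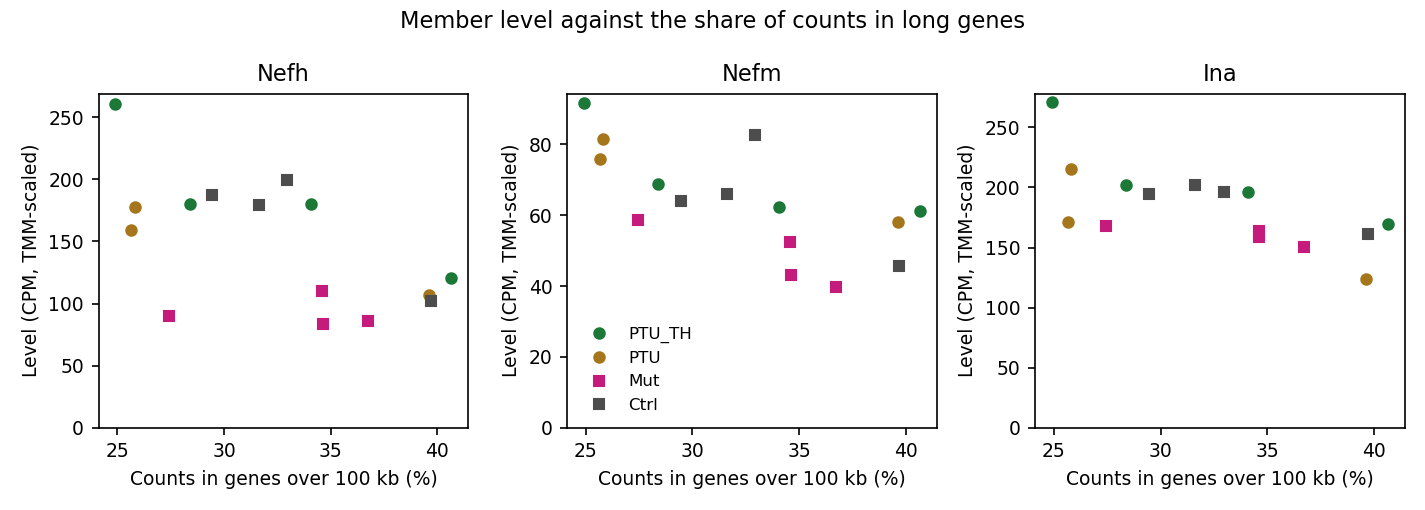
Level of each member (CPM scaled by TMM) against the percentage of counts in genes longer than 100 kb, 1 point per library, with circles for PTU_TH and PTU and squares for Mut and Ctrl. In PTU_TH and PTU the 4 libraries with a share of 24.9% to 28.4% read 68.7 to 91.8 CPM for Nefm against 58.1 to 62.3 in the other 3, and the Mut libraries lie low for Nefh at shares from 27.4% to 36.7%.

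The difference between the mutant effect and the hormone effect, (Mut − Ctrl) − (PTU_TH − PTU), rests on comparisons that share no libraries and was tested in 1 fit of all 15. It was −1.18 ± 0.34 for Nefh on the log2 scale (95% interval −1.90 to −0.46; unadjusted p = 0.00297, edgeR adjusted p = 0.0996), where 1.93% of all genes were called. For Ina it was −0.54 ± 0.24 (edgeR adjusted p = 0.370) and for Nefm −0.40 ± 0.27 (edgeR adjusted p = 0.659). Of the 3 members, Nefh and Ina had an unadjusted p under 0.05 in edgeR, a level reached by 11.5% of all genes. For Nefh, DESeq2 gave −1.20 with an adjusted p of 0.0178 and the Y-linked covariate −1.34 with an edgeR adjusted p of 0.0484. The edgeR adjusted p for Nefh was 0.0271 without Ctrl replicate 1 and 0.0422 without PTU_TH replicate 2.

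Set against Ctrl, 0 of 3 members passed the threshold in PTU or in PTU_TH by edgeR. Both comparisons share the Ctrl libraries and cross the separately counted sets of files, so that set and treatment cannot be told apart. The sets differ in more than treatment. Tuba1a, a tubulin gene with 3.93% of its annotated span to itself, averaged 1.53 ± 0.141 CPM in PTU and 1.67 ± 0.215 in PTU_TH, against 87.4 ± 8.57 CPM in Ctrl. In PTU against Ctrl the log2 fold changes were −0.17 ± 0.23 for Nefh (edgeR adjusted p = 0.688), 0.16 ± 0.19 for Nefm (edgeR adjusted p = 0.628) and −0.14 ± 0.18 for Ina (edgeR adjusted p = 0.652). In PTU_TH against Ctrl they were 0.15 ± 0.24 for Nefh (edgeR adjusted p = 0.724), 0.14 ± 0.18 for Nefm (edgeR adjusted p = 0.664) and 0.15 ± 0.15 for Ina (edgeR adjusted p = 0.549).

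These counts stand against 17% of all genes called in PTU against Ctrl (4.38% higher and 12.6% lower) and 17.8% in PTU_TH against Ctrl (4.72% higher and 13.1% lower). Group ranges overlapped for all 3 in both comparisons, while they were apart for 27.6% of all genes in PTU against Ctrl and 23.2% in PTU_TH against Ctrl. The 95% intervals for Nefh ran from −0.68 to 0.34 and from −0.36 to 0.67. Both include 0, and differences within those bounds remain compatible with these libraries.

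**Figure D5:**
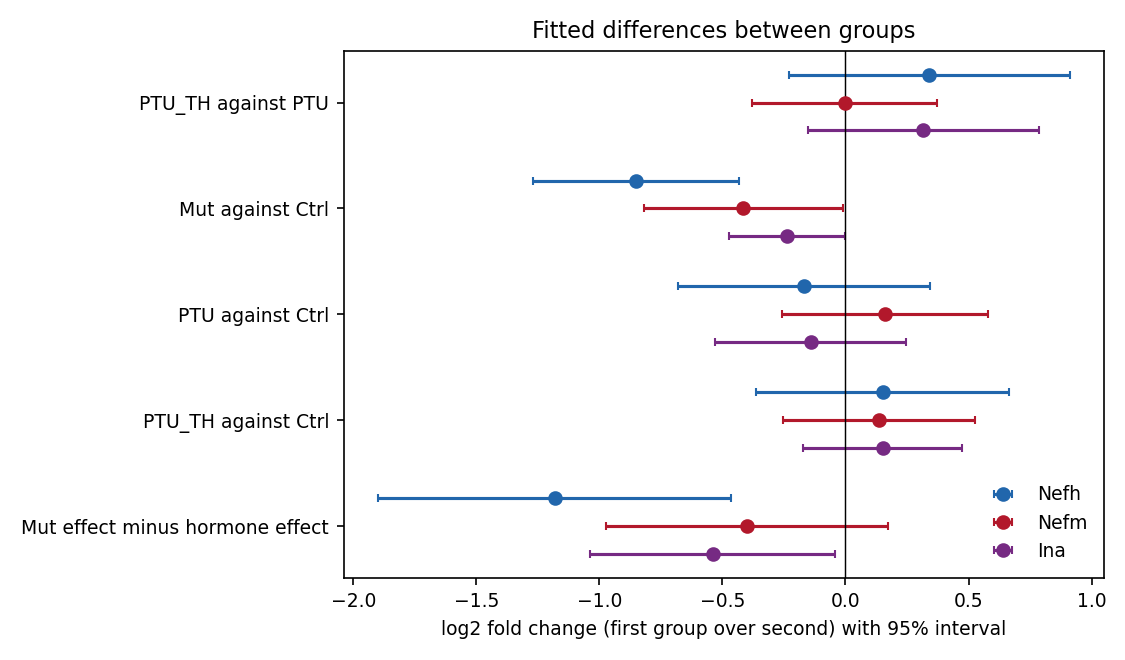
Fitted log2 fold changes of Nefh, Nefm and Ina with 95% intervals for each comparison, the first-named group over the second. Only Nefh in Mut against Ctrl and in the difference of effects has an interval well clear of 0, at −1.27 to −0.43 and −1.90 to −0.46.

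Partners of the neurofilaments were examined as lists. Of 14 other intermediate filament genes 4 were measured well enough to test in Mut against Ctrl and in PTU_TH against PTU, and 0 were called by edgeR in either. The smallest p belonged to Lmnb2, a nuclear lamin, in Mut against Ctrl (34.7 ± 7.96 against 42.9 ± 7.84 CPM; log2 fold change −0.31, edgeR adjusted p = 0.744). In PTU_TH against PTU it belonged to Sync, a desmin-binding filament protein (1.86 ± 0.417 against 3.06 ± 0.448 CPM; −0.70, edgeR adjusted p = 0.612). Gfap and Synm were at 0 in all libraries and, as for Nefl, had no base of their span to themselves. Over all lists 9 of the 10 genes at 0 everywhere had that property.

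Genes of filament turnover and kinases gave 0 calls of 14 tested in both comparisons. In PTU_TH against PTU the smallest p was for Mapk3, a kinase of the ERK pathway (−0.42, edgeR adjusted p = 0.746).

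The axonal transport motors, which carry neurofilaments along microtubules, had 0 calls of 12, with all 12 negative in Mut against Ctrl (median −0.11, against 0.014 over all genes). Dync1h1, the dynein heavy chain, had the smallest p there, at 275 ± 16.3 CPM in Mut and 322 ± 28.8 CPM in Ctrl (−0.23, edgeR adjusted p = 0.604). In PTU_TH against PTU 6 of the 12 motors were positive, and Klc2, a kinesin light chain, had the smallest p (−0.16, edgeR adjusted p = 0.860). Plakins and spectrins, the linkers to other cytoskeleton, had 0 calls of 9. All 9 were negative in Mut against Ctrl (median −0.17, against 0.014 over all genes). In PTU_TH against PTU 8 of 9 were positive (median 0.12, against −0.0029 over all genes). Their smallest p in Mut against Ctrl was for Sptan1, alpha-II spectrin (−0.18, edgeR adjusted p = 0.775). Genes of a list were read in the same libraries, so their signs are not independent, and these sign counts were not tested.

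Tubulins and microtubule proteins had 0 calls of 20 in Mut against Ctrl and in PTU_TH against PTU by edgeR. Tuba4a, an alpha tubulin, had the smallest p in Mut against Ctrl (87.2 ± 8.96 against 113 ± 11.3 CPM; −0.37, edgeR adjusted p = 0.329). Tubb2b, a beta tubulin, did so in PTU_TH against PTU (2.35 ± 0.607 against 4.87 ± 1.37 CPM; −1.04, edgeR adjusted p = 0.355).

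Across the sets of files some partners were called. In PTU against Ctrl, Cdk5, a kinase of neurofilament tails, was higher (200.5 ± 27.9 against 147 ± 13.6 CPM; 0.45, edgeR adjusted p = 0.0413). Kif5b, a kinesin heavy chain, was lower in both PTU (58.0 ± 7.59 CPM; −0.63, edgeR adjusted p = 0.00636) and PTU_TH (59.1 ± 7.54 CPM; −0.61, edgeR adjusted p = 0.00218) than in Ctrl (90.4 ± 6.68 CPM). Its span is shared with other genes to a large extent, 64.1% being its own. In PTU_TH against Ctrl, Rock2, a kinase that phosphorylates filament proteins, was lower (−0.43, edgeR adjusted p = 0.0493) and Map6, a microtubule stabiliser, higher (0.61, edgeR adjusted p = 0.0182). Of the 20 microtubule genes 4 were called lower in PTU and 4 in PTU_TH, namely Tuba1a, Tuba1b, Tubb2b and Stmn1 in each, where 12.6% and 13.1% of all genes were called lower. Tuba1b has 22.7% of its span to itself, and Tuba1a was described above. Tubb2b and Stmn1 have 100% and 98.4% of their spans to themselves. Tubb2b averaged 4.87 CPM in PTU and 2.35 in PTU_TH, against 35.4 in Ctrl. Stmn1 averaged 16.2 CPM in PTU and 16.9 in PTU_TH, against 31.4 in Ctrl. The plakins and the other intermediate filament genes had 0 calls across the sets, with Macf1 (−0.56, edgeR adjusted p = 0.0652) and Lmna (0.34, edgeR adjusted p = 0.136) lowest in p in PTU against Ctrl. Of the other intermediate filament genes, Sync (−0.87, edgeR adjusted p = 0.0812) was lowest in p in PTU_TH against Ctrl.

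Genes with the pattern most like each member were ranked by the lower of 2 Pearson correlations of log2 CPM, over the 8 Mut and Ctrl libraries and over the 7 PTU_TH and PTU libraries, among 10502 genes. For Nefh they were Nat8l, the N-acetylaspartate synthase (0.95), Ina (0.95) and Arhgef4, a guanine nucleotide exchange factor (0.93). For Ina they were Extl2, a glycosyltransferase (0.96), 1190002N15Rik (0.96) and Vamp1, a synaptic vesicle SNARE (0.95), with Nefh at rank 4. For Nefm they were Slc38a2, an amino acid transporter (0.91), 1700066M21Rik (0.89) and Got1, an aspartate aminotransferase (0.88), with Nefh at rank 30 and Ina at rank 44. All these points share their libraries, depth and long-gene share, and the values are given as a description. The 8 of these genes that are not members had log2 fold changes from 0.091 (Slc38a2) to 0.55 (Extl2) in PTU_TH against PTU, with edgeR adjusted p of 0.721 or more. In Mut against Ctrl they ran from −0.44 (1190002N15Rik) to −0.056 (Got1), with edgeR adjusted p of 0.231 or more. The genes were chosen by correlation with a member over these same libraries, so the direction of their changes is in part set by that choice.

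Because Nefh and Nefm are also made by excitatory projection neurons, the markers of that class were read in the same libraries. The 14 excitatory markers summed to 384 to 541 CPM in Mut against 466 to 527 in Ctrl, and to 516 to 682 CPM in PTU_TH against 500 to 640 in PTU, with 0 of 14 called in either comparison by edgeR and none at 0. Sums are weighted to the abundant genes of a list. Gene by gene, 9 of the 14 were positive in Mut against Ctrl (median log2 fold change 0.13) and 5 in PTU_TH against PTU (median −0.14). Markers of other interneurons (10 genes) summed to 136 to 218 CPM in Mut against 113 to 137 in Ctrl, and to 55.4 to 141 CPM in PTU_TH against 73.6 to 139 in PTU. Oligodendrocyte markers (8 genes) summed to 106 to 138 CPM in Mut against 109 to 138 in Ctrl, and to 86.1 to 206 CPM in PTU_TH against 134 to 209 in PTU. Astrocyte markers (7 genes) summed to 63.0 to 104 CPM in Mut against 72.1 to 100 in Ctrl, and to 62.4 to 104 CPM in PTU_TH against 74.8 to 112 in PTU. Microglial and vascular markers (8 genes, P2ry12 at 0) summed to 5.17 to 17.2 CPM in Mut against 6.17 to 11.7 in Ctrl, and to 2.45 to 18.3 CPM in PTU_TH against 8.12 to 11.7 in PTU. Of 7 other interneuron markers tested, 6 were positive in Mut against Ctrl (median 0.32) and 2 in PTU_TH against PTU (median −0.31). For 8 oligodendrocyte markers these counts were 5 (median 0.19) and 1 (−0.32), and for 7 astrocyte markers 3 (−0.19) and 1 (−0.31). For microglial and vascular markers they were 3 of 5 tested (median 0.18) and 2 of 6 (−0.049). The 12 parvalbumin neuron markers (Cox6a2 at 0) summed to 8482 to 10804 CPM in Mut against 8022 to 10601 in Ctrl, and to 6692 to 9025 CPM in PTU_TH against 6438 to 8798 in PTU. Of the 11 tested, 4 were positive in Mut against Ctrl (median −0.16) and 7 in PTU_TH against PTU (median 0.11). Pvalb itself read 67.2 to 92.2 CPM in Mut against 116 to 138 in Ctrl, and 119 to 150 CPM in PTU_TH against 90.3 to 105 in PTU. Of all the marker genes, 1 was called within a set of files. Tac1, a tachykinin precursor counted among the parvalbumin neuron markers, was higher in Mut (241 ± 71.4 CPM) than in Ctrl (107 ± 13.7 CPM; log2 fold change 1.17, edgeR adjusted p = 0.0243). Where a marker list had no called gene, its smallest p was adjusted to between 0.277 (Pvalb) and 0.982 (Pecam1) by edgeR in PTU_TH against PTU, and to between 0.293 (Npy) and 0.874 (Pecam1) in Mut against Ctrl. Across the sets, Adarb2, an interneuron marker, was lower in PTU (−1.14, edgeR adjusted p = 0.0380) and PTU_TH (−1.47, edgeR adjusted p = 0.00617) than in Ctrl. Fezf2, of deep-layer excitatory neurons, and Mbp, a myelin protein, were higher in PTU than in Ctrl (1.55 and 0.62, edgeR adjusted p = 0.0155 and 0.00324). In PTU_TH against Ctrl, Nptx1, an excitatory marker here, was higher (0.92) and Tac1 lower (−0.73), with edgeR adjusted p of 0.0262 and 0.0200. The part of these markers in the values of Nefh, Nefm and Ina was not tested.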

How the data were processed

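Nuclear RNA of sorted nuclei was amplified with a SMART-Seq v4 kit, made into Nextera XT libraries and sequenced as single-end reads, per the labels' protocols. The authors deposited raw counts per gene symbol, 1 file per library. The submitters' processing notes name Bowtie2 2.5.3, HTSeq, mm10 and GRCm38. Which annotation, feature type, overlap mode and strand option were used was not given in the sources used here. The kits do not mark strand.

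Groups came from the sample titles and genotypes, and each library from an individual cortex, per the labels' protocols. No 2 replicates agreed within sampling noise (chi-square per degree of freedom 7.67 to 115). Each comparison used its own groups only, with edgeR 4.0.16 in R 4.3.3 (TMM, filterByExpr at a count of 10 or more, quasi-likelihood fit with robust set, Benjamini-Hochberg adjustment over all genes tested, called at an adjusted p under 0.05). Comparisons across the sets used genes with a shared symbol. Standard errors are the log2 fold change divided by the square root of F. Levels are CPM with TMM factors from all 15 libraries. Positions, exon lengths and transcripts came from GENCODE M21, gene spans from RefSeq GRCm38.p6.

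Alternatives were DESeq2 1.42.0, RLE scaling, no filter, covariates for Y-linked counts (4 genes over 50 CPM) and for counts in genes over 100 kb, a fit of all groups, the replicate number as a block and each library omitted in turn. RefSeq gene span as the length behind levels between members was added after seeing the data. The members, lists and tests were chosen with earlier results of these data known. Named genes are the members, per list the called genes or the one with the smallest p, the 3 most alike genes per member, and Hr, Thra and Pvalb; some genes that this rule names are not reported here. Gad1 and Slc17a7 were added as checks of the sorted cell type after their values were seen.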

Additional observations from a re-analysis of the deposited data

How the results depend on the processing

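Of 225 refits of the 3 measured members, 200 kept direction and side of the threshold, 9 newly passed it and 16 changed sign. With the long-gene covariate Nefh (0.41) and Ina (0.39) passed in PTU_TH against PTU and Nefh (−0.82) in Mut against Ctrl. With DESeq2 Nefh passed in Mut against Ctrl (−0.85) and in the difference of effects (−1.20), and with the Y-linked covariate in that difference (−1.34). Every sign change was of a value that passed in neither fit. For Nefm in PTU_TH against PTU the log2 fold change was 0.0010 with DESeq2, 0.00105 with RLE scaling, 0.00253 without a filter, 0.0573 with the Y-linked covariate and 0.0450 with the long-gene covariate, and −0.15 to 0.092 on omission of 1 library. On omission of 1 library, values ran in PTU against Ctrl from −0.34 to 0.011 for Nefh and from −0.35 to 0.032 for Ina, and in PTU_TH against Ctrl from −0.056 to 0.30 for Nefh and from −0.0096 to 0.28 for Nefm. The signs in PTU against Ctrl turned without PTU replicate 5 only, and those in PTU_TH against Ctrl without PTU_TH replicate 4 or without Ctrl replicate 1 (−0.034 for Nefh and −0.0033 for Nefm). In PTU_TH against PTU the values ran from 0.14 to 0.49 for Nefh and from 0.15 to 0.52 for Ina. The values for Nefh ran from −1.03 to −0.76 in Mut against Ctrl and from −1.36 to −0.97 for the difference of effects.

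Counts of called genes over all genes moved more. For PTU_TH against PTU (43) they were 246 with DESeq2, 335 with the Y-linked and 1011 with the long-gene covariate, and 5 to 29 on omission of 1 library. For Mut against Ctrl (59) they were 358 with DESeq2, 31 with the Y-linked and 210 with the long-gene covariate, 196 in the fit of all 4 groups, and 11 to 103 on omission of 1 library. For PTU against Ctrl (2804) they were 2061 to 4283 on omission of 1 library, and for PTU_TH against Ctrl (2814) 4536 with the long-gene covariate. The highest count for PTU against Ctrl was without PTU replicate 5, and the 103 for Mut against Ctrl without Mut replicate 2; omission of any library but PTU_TH replicate 4 lowered the 43 by over 1.5 times, and of any but Ctrl replicate 1 and Mut replicate 2 the 59. The causes were not tested. Replicate numbers of Mut and Ctrl are not said to pair animals, and deviations of same-numbered libraries correlated at 0.12, 0.20, −0.021 and 0.085. With the replicate block Nefh was at −0.82 (edgeR adjusted p = 0.0662) in Mut against Ctrl and at 0.15 (edgeR adjusted p = 0.727) in PTU_TH against Ctrl, and it changed no call of a member. Under RLE or library total scaling the group means of the members moved by less than 1 SD in 24 of 24 values.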
